A study of Mus musculus with 16 samples.

Results

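The homeobox clusters HoxA, HoxC and HoxD, with the even-skipped genes Evx1 and Evx2 at the edges of HoxA and HoxD, were followed through an H3K27me3 ChIP-seq experiment in mouse embryonic stem cells. The members were 30 genes (10 of HoxA, 9 of HoxC, 9 of HoxD, Evx1 and Evx2) and the consensus peaks that overlap the span of any of them or its 2 kb surroundings. This gave 5 of the 102957 consensus peaks. All 5 were measured in all 16 libraries, and none was lost to a filter on low counts.

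The study asked how the H3K27me3 landscape of these cells behaves when Firre, a nuclear long non-coding RNA transcribed from the X chromosome, is induced with doxycycline on a Firre KO or a WT background. The labels describe 4 lines: Firre KO cells with an inducible Firre transgene (KO transgene), cells labelled Firre KO without it (KO control), WT cells with the transgene (WT transgene) and WT cells without it (WT control). Each line was taken at 48 h and at 0 h of doxycycline, so that the control lines received the drug too, and all cells grew on gelatin with serum, LIF, PD0325901 and CHIR99021 (inhibitors of MEK and GSK3). Every line and time had 1 H3K27me3 and 1 input library, and nothing in the labels says how many clones or separate cultures stand behind a line.

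Hox genes encode transcription factors that give cells their position along the body axis, and within a cluster their order on the chromosome follows the order of their expression from head to tail. In embryonic stem cells the clusters are a textbook target of Polycomb repressive complex 2, which trimethylates histone H3 at lysine 27 over silent developmental genes. Unmethylated CpG-rich promoters are a known feature of such targets in mammals.

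To show the DNA underneath, the RefSeq promoter window of 300 bases (250 before and 50 after the start, GRCm38.p6, the build also called mm10) is printed for the gene of each cluster, and for each Evx gene, whose window holds the most CpG. CpG dinucleotides are in capitals, and each sequence reads 5′ to 3′ in the direction of the gene. Hoxa13 (chr6:52260831-52261130, minus strand, 45 CpG) and Hoxd13 (chr2:74667975-74668274, plus strand, 37 CpG) act in the digits and the urogenital tract. Evx2 (chr2:74659508-74659807, minus strand, 16 CpG) is a neighbour of Hoxd13, Evx1 (chr6:52313248-52313547, plus strand, 12 CpG) specifies a class of spinal commissural interneurons, and Hoxc4 (chr15:103034145-103034444, plus strand, 9 CpG) belongs to the anterior end of HoxC.
Hoxa13: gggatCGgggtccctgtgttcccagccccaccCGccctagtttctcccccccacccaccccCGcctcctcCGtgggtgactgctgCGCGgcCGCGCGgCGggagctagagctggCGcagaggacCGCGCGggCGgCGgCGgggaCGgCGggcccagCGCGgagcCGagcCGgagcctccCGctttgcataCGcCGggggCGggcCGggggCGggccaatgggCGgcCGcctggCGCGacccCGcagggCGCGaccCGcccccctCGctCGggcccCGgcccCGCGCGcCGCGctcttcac
Hoxd13: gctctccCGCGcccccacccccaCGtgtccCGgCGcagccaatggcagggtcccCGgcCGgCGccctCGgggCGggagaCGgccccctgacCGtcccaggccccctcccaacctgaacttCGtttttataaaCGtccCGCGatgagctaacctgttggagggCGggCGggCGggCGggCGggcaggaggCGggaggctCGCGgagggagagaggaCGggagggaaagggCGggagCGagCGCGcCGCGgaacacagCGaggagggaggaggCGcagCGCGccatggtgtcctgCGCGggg
Evx2: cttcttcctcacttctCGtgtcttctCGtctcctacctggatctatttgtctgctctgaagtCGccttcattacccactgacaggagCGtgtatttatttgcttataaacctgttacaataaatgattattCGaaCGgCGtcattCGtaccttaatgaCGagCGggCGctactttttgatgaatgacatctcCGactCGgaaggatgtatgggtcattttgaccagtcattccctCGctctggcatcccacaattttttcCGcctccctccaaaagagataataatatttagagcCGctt
Evx1: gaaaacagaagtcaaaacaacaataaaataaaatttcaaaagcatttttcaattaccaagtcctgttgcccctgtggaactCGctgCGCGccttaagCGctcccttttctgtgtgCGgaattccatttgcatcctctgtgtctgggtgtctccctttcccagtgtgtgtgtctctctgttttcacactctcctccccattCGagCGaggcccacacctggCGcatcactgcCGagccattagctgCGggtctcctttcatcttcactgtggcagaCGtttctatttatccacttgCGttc
Hoxc4: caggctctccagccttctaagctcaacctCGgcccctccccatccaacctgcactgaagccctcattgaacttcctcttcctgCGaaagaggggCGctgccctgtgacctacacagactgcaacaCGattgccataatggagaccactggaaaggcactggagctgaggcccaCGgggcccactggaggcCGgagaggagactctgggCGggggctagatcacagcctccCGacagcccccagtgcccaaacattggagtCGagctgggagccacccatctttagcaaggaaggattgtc

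In all, 23 promoter windows were matched by symbol to 21 of the 30 genes. Genes without an entry were Hoxa4, Hoxc5, Hoxc6, Hoxc8, Hoxc9, Hoxc10, Hoxc11, Hoxc12 and Hoxc13. Hoxc4 was thus printed as the only HoxC gene with a window, and not as the richest in CpG of its cluster. The start site lay inside the gene's own H3K27me3 peak for all 23. The windows held 4 to 45 CpG with a median of 16, against a median of 7 over all 32851 promoters of the table. Among those, the median was 7 for promoters in a consensus peak and 8 for promoters in none. The poorest windows, with 4 CpG each, were those of Hoxa9, Hoxd4 and 1 of the 2 windows of Hoxd11, so CpG density varied widely within the HoxA peak and within the HoxD peak. The letters TATAAA, searched on both strands, occurred in 4 of the 23 windows (17.4%), against 13.6% of all promoters. On the strand of the gene they occurred in 2 of 23, Evx2 and Hoxd13, against 8.32% of all promoters.

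H3K27me3 covered HoxA and HoxD as 1 broad consensus peak each. The HoxD peak (chr2:74637183-74789361, peak starts as deposited) was 152178 bp wide, the widest of the 102957, and held Evx2 with all 9 HoxD genes in it, from Hoxd1 at the anterior end of the cluster to Hoxd13 at the posterior end. The HoxA peak (chr6:52139636-52282771) was 143135 bp wide, the fifth by width, and held Hoxa2 to Hoxa13. Evx1 lay beyond Hoxa13 in a peak of its own (chr6:52284389-52331829, 47440 bp), which began 1618 bp after the HoxA peak ended.

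HoxC was divided. Hoxc4 to Hoxc12 lay in a peak of 105680 bp (chr15:102934929-103040609), and Hoxc13, which acts in hair and nail formation, lay in a separate peak of 40505 bp (chr15:102887393-102927898) with 7031 bp between them. The Hoxc13 peak took in 88.1% of the Hoxc13 span, whereas the other 29 genes lay wholly inside their peaks. The median consensus peak was 2356 bp wide. Genes that share a peak share its counts, so values below are given per peak, and a difference between neighbouring genes cannot be seen.

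**Figure D1:**
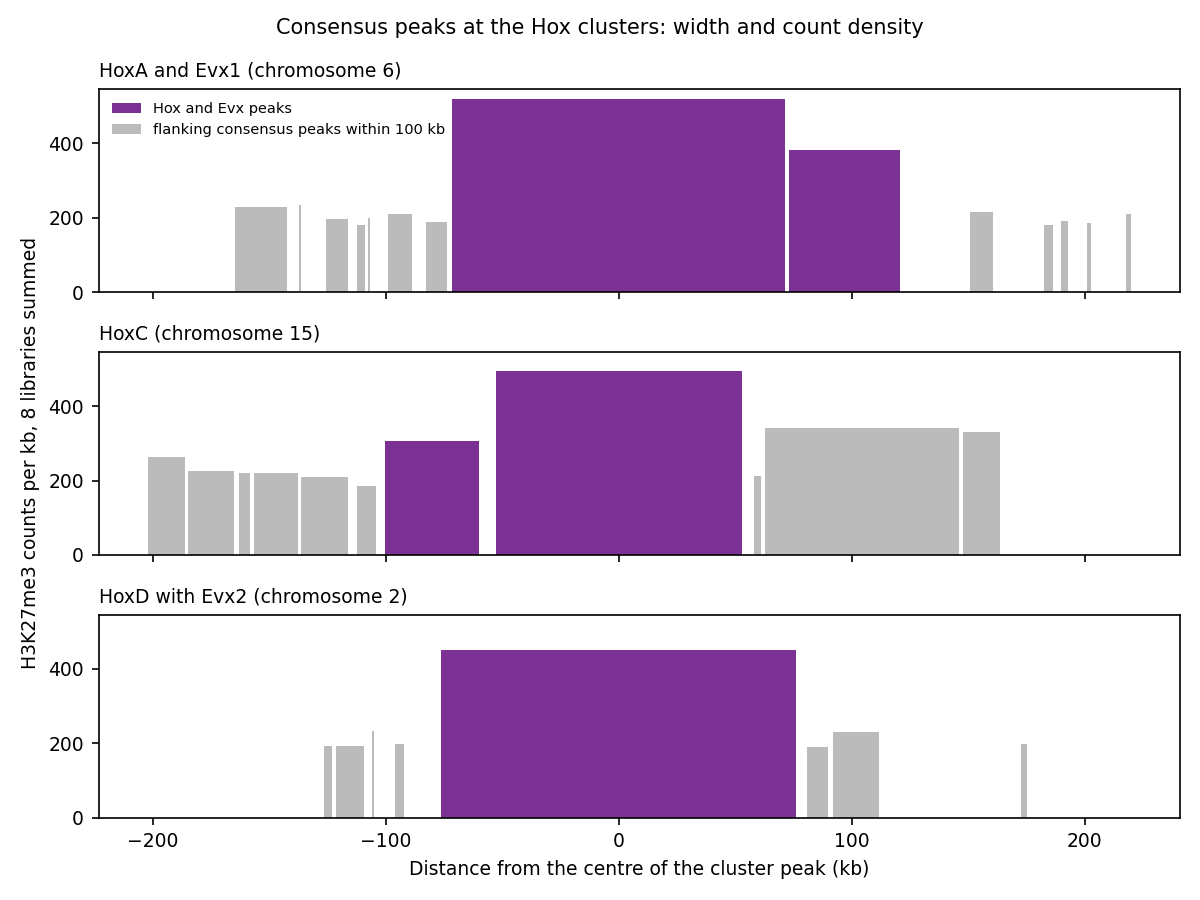
Consensus peaks around HoxA with Evx1, HoxC and HoxD with Evx2, drawn by distance from the centre of the cluster peak (kb) against H3K27me3 counts per kb summed over 8 libraries. Purple blocks are the 5 Hox and Evx peaks (307 to 520 counts per kb), grey blocks the 28 other consensus peaks within 100 kb (179 to 342 counts per kb). The blocks step down outside the clusters, least so to the right of HoxC.

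The density of H3K27me3 counts differed between the blocks while the density of input counts did not follow it. Summed over the 8 libraries of each kind, the HoxA peak had 519.9 H3K27me3 and 98.0 input counts per kb, and the HoxC peak 495 and 98.1. The HoxD peak had 451 H3K27me3 and 94.0 input counts per kb, the Evx1 peak 381 and 91.4, and the Hoxc13 peak 307 and 97.9. The median consensus peak had 200.3 H3K27me3 counts per kb. Together the 5 peaks made up 0.102% of the width of all consensus peaks, and took 0.192% to 0.243% of the H3K27me3 counts and 0.0985% to 0.106% of the input counts of a library.

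An H3K27me3 library held 10380781 to 14787938 counts in all consensus peaks, and an input library 3340654 to 6244333. Both lowest totals were those of the KO control line at 0 h. The labels were checked at the Firre gene, where 1 peak had H3K27me3 counts of 47 at 48 h and 172 at 0 h for KO transgene, 177 and 164 for the labelled KO control, 57 and 263 for WT transgene, and 0 and 1 for WT control. Input density there was 10.7, 11.1, 14.9 and 0.694 times the mean of chromosome X in these lines, in the same order. The line labelled KO control thus held Firre sequence above the WT control line, against its label. Differences between backgrounds at the 5 Hox and Evx peaks are given with and without it, and other results that include it are named. Chromosome 11, which carries none of the 30 genes, took 10.5 ± 0.662% of input counts in KO libraries and 8.35 ± 0.109% in WT libraries (SD, n = 4 each).

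All 5 peaks rose over input. The ratio over input is the share of H3K27me3 counts divided by the share of input counts of the same line and time, so 1 is the average consensus peak and not the genomic background. It averaged 2.36 ± 0.194 at HoxA, 2.27 ± 0.30 at HoxC (Hoxc4 to Hoxc12), 2.13 ± 0.130 at HoxD with Evx2, 1.85 ± 0.0789 at Evx1 and 1.41 ± 0.184 at Hoxc13 (SD, n = 8 lines and times). Over all peaks the median ratio of summed counts was 0.861.

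By edgeR's quasi-likelihood test on all peaks, with the line and time as block, all 5 were called higher at an adjusted p under 0.05, where 7.76% of all peaks were. The log2 excess over input was 1.23 ± 0.02 (SE) at HoxA with an adjusted p of 2.83e-142, 1.16 ± 0.02 at HoxC, 1.09 ± 0.02 at HoxD, 0.88 ± 0.03 at Evx1 and 0.47 ± 0.03 at Hoxc13 with an adjusted p of 2.06e-34. HoxA, HoxC and HoxD were 3 of the 127 peaks at or above 2-fold. The p-values of this and the other tests measure only the spread between these libraries, which may be technical. The peak caller's own fold enrichment, the authors' value, was 4.12 at HoxA, 3.87 at HoxC, 3.67 at HoxD, 3.13 at Evx1 and 2.61 at Hoxc13, against a median of 1.53, and gave the same order. It comes from the same experiment, so the shared order is not independent.

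**Figure D2:**
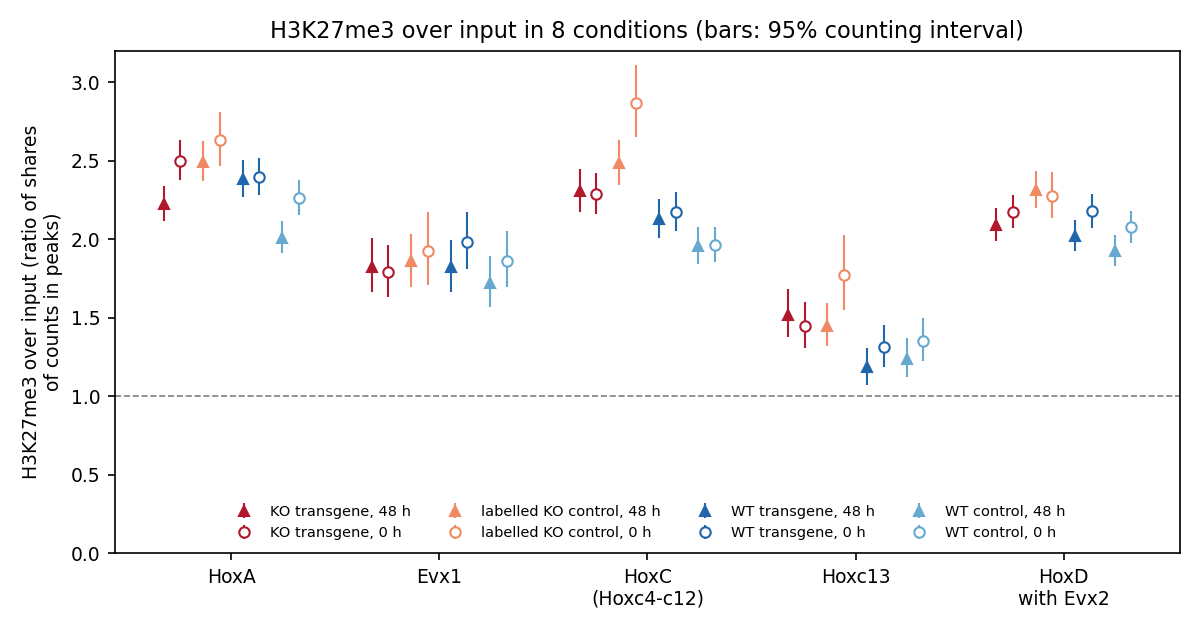
H3K27me3 over input (ratio of shares of counts in peaks) at the 5 Hox and Evx peaks in each line, at 48 h (triangles) and 0 h (open circles), with 95% exact intervals that cover counting error only. All 40 ratios lie above the dashed line at 1, the average consensus peak, and Hoxc13 lies lowest in every line and time.

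The order of the blocks was partly stable. HoxA lay above HoxD in 8 of 8 lines and times and HoxD above Evx1 in 8 of 8, by 0.15 ± 0.06 and 0.20 ± 0.07 on the log2 scale (SD). Evx1 lay above Hoxc13 in 8 of 8 by 0.40 ± 0.17. HoxC lay below HoxA in 6 of 8 and above HoxD in 6 of 8, and its distance from either neighbour (0.06 ± 0.12 and 0.08 ± 0.12) was smaller than its spread.

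HoxC had the widest range of the 5 as a difference of ratios, from 1.95 to 2.87, and Hoxc13, from 1.18 to 1.77, had a slightly wider one as a fold. Its ratio over input at 48 h and 0 h was 2.31 and 2.29 in KO transgene cells, 2.48 and 2.87 in the labelled KO control line, 2.13 and 2.17 in the WT transgene line and 1.95 and 1.962 in the WT control line. The lines kept their order at both times, with the highest value in the labelled KO control line at 0 h, whose input library was the shallowest (95% interval 2.65 to 3.11). Hoxc13 had 1.52 and 1.44 in KO transgene cells, 1.45 and 1.77 in the labelled KO control line, 1.18 and 1.31 in the WT transgene line and 1.24 and 1.35 in the WT control line.

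The ratio over input stepped down near the cluster borders, least so beside HoxC. The flanking regions are consensus peaks too, so a ratio near 1 does not mean that the mark is absent there. Of 28 other consensus peaks within 100 kb of the 5, the 12 around HoxA and Evx1 had ratios over input of 0.689 to 1.05 and the 7 around HoxD 0.816 to 1.09. The 9 around HoxC ran from 0.811 to 1.63, with a median of 0.990. Their 2 highest, 1.63 and 1.56, belonged to the neighbouring broad peaks at chr15:103050461-103133891 and chr15:103135545-103151209, on the Hoxc4 side. Both exceeded the 1.39 of the Hoxc13 peak from the same summed counts.

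The HoxB cluster on chromosome 11, the remaining Hox cluster, was measured in the same way for comparison. Its main peak had a ratio over input of 2.59 ± 0.104 and its second peak, with Hoxb13 in it, 1.77 ± 0.165 (SD, n = 8). Hoxb13, like Hoxc13, thus stood in a separate peak with a lower ratio, while Hoxa13 and Hoxd13 lay inside the main blocks. Of cell type markers used to check the cells, 3 of 16 naive pluripotency genes and 0 of 10 housekeeping genes had a consensus peak, against 7 of 7 primitive endoderm and 6 of 7 fibroblast genes, which embryonic stem cells keep silent. Within the peaks themselves the order was another one, with a median ratio over input of 1.13 over the 6 naive pluripotency peaks, 0.935 over the 24 primitive endoderm peaks and 0.967 over the 18 fibroblast peaks. edgeR called 3 of the 6, 6 of the 24 and 6 of the 18 higher over input. The share of all genes with a consensus peak under this rule was not counted, and a longer span meets a peak more easily. By start site alone, 9904 of 32851 promoters lay in one.

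After 48 h of doxycycline, H3K27me3 at the main Hox blocks was modestly lower than at 0 h. It stood at 0.904 times the 0 h level at HoxD, 0.915 at HoxA and 0.936 at HoxC (geometric mean of 4 lines). All 4 lines received the drug, so doxycycline, 48 h more in culture and any batch by time cannot be told apart. The HoxD peak had 637, 676, 639.6 and 574 normalised CPM (counts in peaks scaled to a common library size with TMM factors) at 48 h in the KO transgene, labelled KO control, WT transgene and WT control lines, against 704, 743, 699 and 648 at 0 h. The HoxA peak had 693, 729, 721 and 613 at 48 h in the same lines, against 755, 818, 767 and 673 at 0 h. The HoxC peak had 504, 554, 475 and 429 at 48 h, against 526.5, 596, 511 and 463 at 0 h. Each line was lower at 48 h than at 0 h in all 3 peaks, although across lines the ranges of the 2 times overlapped.

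These 3 peaks fell by edgeR's quasi-likelihood test with the line as block. The log2 change was −0.15 ± 0.01 (SE, adjusted p = 1.64e-28) at HoxD, −0.13 ± 0.01 (8.68e-25) at HoxA and −0.10 ± 0.01 (4.92e-07) at HoxC. Among all peaks 0.102% were called lower. By size of change the 3 were less unusual, at percentiles 15.4 (HoxD), 17.9 (HoxA) and 23.9 (HoxC) of the log2 values of all peaks. They hold 52271 to 74411 H3K27me3 counts against a median of 443, so a small change is more easily called in them. Taken over the 4 lines as the unit, the mean was −0.15 ± 0.02, −0.13 ± 0.03 and −0.10 ± 0.02 (SD, n = 4), and the exact two-sided sign-flip test gave 0.125 for each, which is the smallest p that 4 lines allow.

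The 2 outlying peaks were not called. Evx1 had 169, 184, 174 and 155 normalised CPM at 48 h, against 171, 185, 194 and 164 at 0 h, lower in all 4 lines. Its log2 difference was −0.07 ± 0.02 with an adjusted p of 0.373 by edgeR's quasi-likelihood test. Hoxc13 had 126, 136, 107 and 109 at 48 h, against 124, 142, 113 and 108 at 0 h, lower in 2 of 4 lines, with −0.03 ± 0.03 and an adjusted p of 0.903.

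**Figure D3:**
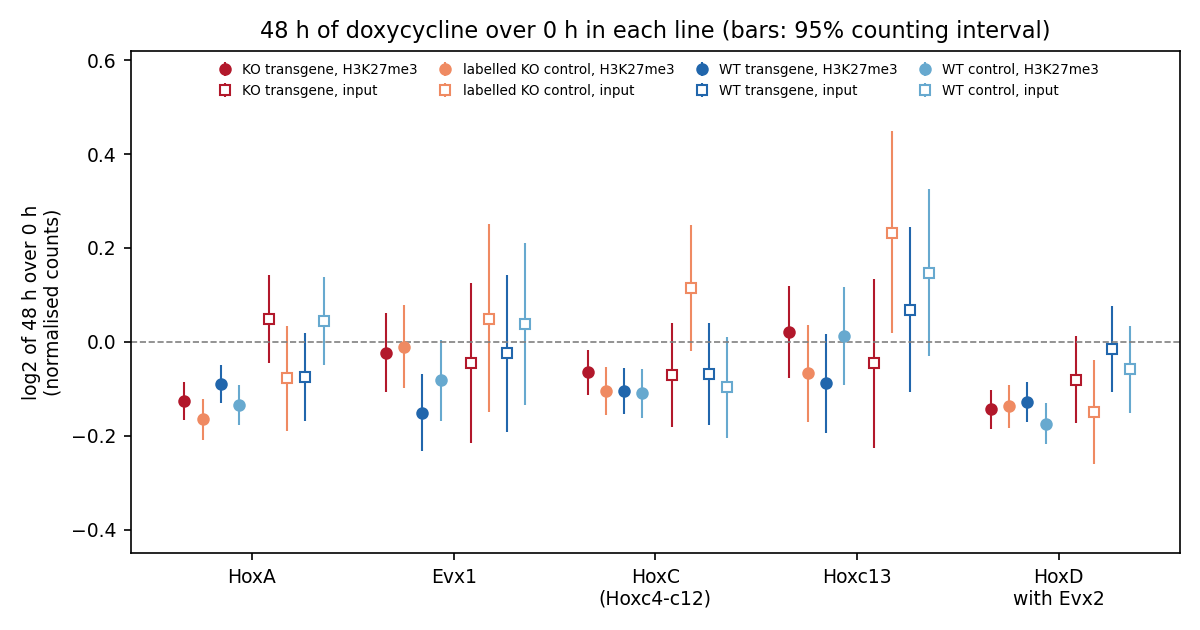
Log2 of normalised counts at 48 h over 0 h of doxycycline in each line for H3K27me3 (filled circles) and input (open squares), with 95% exact counting intervals. At HoxA, HoxC and HoxD all 4 H3K27me3 points lie below 0 with intervals that do not reach it, while the intervals reach 0 in 3 of 4 lines at Evx1 and in 4 of 4 at Hoxc13.

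The input libraries gave no call at any peak in the genome for time (0% of 99005 tested by edgeR, 4908 at an unadjusted p under 0.05). Input at HoxD was still −0.07 ± 0.03 and lower in 4 of 4 lines, in the direction of the H3K27me3 change. At HoxA and HoxC input was −0.01 ± 0.03 and −0.04 ± 0.03. Other strongly marked peaks lay on the same side. Of the 121 other peaks at 2-fold or more over input off chromosome 11, 82.6% were below 0 and 11 were called lower, with a median of −0.08. With an offset per library that follows enrichment over input, HoxD alone remained called, at −0.05 with an adjusted p of 0.0137, and HoxA and HoxC stood at −0.02 and 0.002. With the input counts as offset none of the 5 was called and 2 peaks were called in all, against 112, while the log2 values stood at −0.12 at HoxA, −0.08 at HoxD and −0.08 at HoxC. The line labelled KO control did not decide these calls, which were 3 of 5 with its libraries left out. The enrichment over input was then called at 5 of 5.

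No Hox or Evx peak passed the test for Firre induction. Induction was the change with doxycycline in the transgene lines minus that in the control lines, and edgeR's quasi-likelihood test called 0 of 5, with 0.00583% of all peaks called (6 peaks, and 5055 at an unadjusted p under 0.05). The log2 difference was 0.04 ± 0.02 at HoxA (95% interval 0.00145 to 0.0829), 0.02 ± 0.03 at HoxC (−0.03 to 0.08), 0.02 ± 0.02 at HoxD (−0.02 to 0.06), −0.04 ± 0.05 at Evx1 (−0.13 to 0.05) and −0.0025 ± 0.06 at Hoxc13 (−0.11 to 0.11). The bounds come from a fit whose SEs follow read depth almost alone. DESeq2 called 0 of 5 and 1 peak in all. limma-voom called 1 of 5, HoxA at 0.04 (adjusted p = 0.000122), and 11 peaks in all. edgeR without the line labelled KO control called 0 of 5. The 2 backgrounds gave 0.04 in KO and 0.04 in WT lines at HoxA, and 0.09 in KO and −0.10 in WT lines at Hoxc13. Induction in the input libraries called 0% of peaks.

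Between backgrounds the HoxC side rose in KO libraries. Hoxc13 in KO transgene cells had 126 normalised CPM at 48 h and 124 at 0 h, with 136 and 142 in the labelled KO control line, against 107 and 113 in the WT transgene line and 109 and 108 in the WT control line. The KO and WT libraries did not overlap at Hoxc13, where each line entered at both times. The share of all peaks that separate in this way was not counted, so whether this separation is unusual cannot be told. HoxC had 504 and 526.5 in KO transgene cells and 554 and 596 in the labelled KO control line, against 475 and 511 in the WT transgene line and 429 and 463 in the WT control line, where the lowest KO library lay below the highest WT library.

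By edgeR's quasi-likelihood test, with transgene and time in the model, 2 of 5 peaks were called higher in KO, where 3.8% of all peaks were. Hoxc13 was higher by 0.27 ± 0.04 on the log2 scale (SE, adjusted p = 2.32e-07) and HoxC by 0.21 ± 0.04 (1.87e-05). HoxA at 0.11 ± 0.04 (adjusted p = 0.0893), HoxD at 0.11 ± 0.04 (0.0861) and Evx1 at 0.05 ± 0.04 (0.707) were not called. These p-values take the 2 times of a line as separate samples although there were 2 lines per background.

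Of the 5 peaks, only Hoxc13 was called higher in both pairs of lines. Each pair set a single KO line against a single WT line and took the times of a line as separate samples. A difference between backgrounds thus cannot be told apart from a difference between single lines. The control pair also uses the line labelled KO control. How many of all peaks were called higher in both pairs was not counted. In the transgene lines alone, KO over WT was 0.19 at Hoxc13 (adjusted p = 0.000247) and 0.06 at HoxC (adjusted p = 0.0652, edgeR), with −0.04 at HoxA, 0.002 at HoxD and −0.11 at Evx1. Evx1 was called lower there, and 1.67% of all peaks were called in either direction. In the control lines alone all 5 were called higher, where 4.36% of peaks were called, with 0.36 at HoxC, 0.35 at Hoxc13, 0.27 at HoxA, 0.22 at HoxD and 0.21 at Evx1. DESeq2 called Hoxc13 and did not call HoxC (adjusted p = 0.112).

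The input libraries showed no call between backgrounds at these peaks. KO over WT in input was −0.01 ± 0.05 at Hoxc13, −0.06 ± 0.03 at HoxC, −0.02 ± 0.03 at HoxD, −0.03 ± 0.03 at HoxA and 0.03 ± 0.05 at Evx1, where edgeR called 1.94% of all peaks. HoxB served as a contrast on chromosome 11. In H3K27me3 its 2 peaks were higher in KO by 0.47 ± 0.04 and 0.57 ± 0.04. In input they were higher by 0.39 ± 0.03 and 0.39 ± 0.04. The ratio over input at the main HoxB peak was 2.59 in KO transgene, 2.70 in labelled KO control, 2.58 in WT transgene and 2.49 in WT control cells. At the second peak it was 1.81, 1.93, 1.75 and 1.57 in the same order. The part of copy number in the H3K27me3 difference was not tested. Without the labelled KO control line, KO transgene over WT transgene was 0.28 and 0.37 in H3K27me3 and 0.27 and 0.33 in input at the HoxB peaks. In input at the 5 Hox and Evx peaks it lay between −0.06 and −0.02. With library sizes and TMM taken off chromosome 11, 4 of the 5 Hox and Evx peaks were called higher in KO, where 4773 of 102957 peaks were called and 489 of these were lower. Of the 6 naive pluripotency peaks 2 were called lower in KO and none higher, and their part in the result was not tested.

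**Figure D4:**
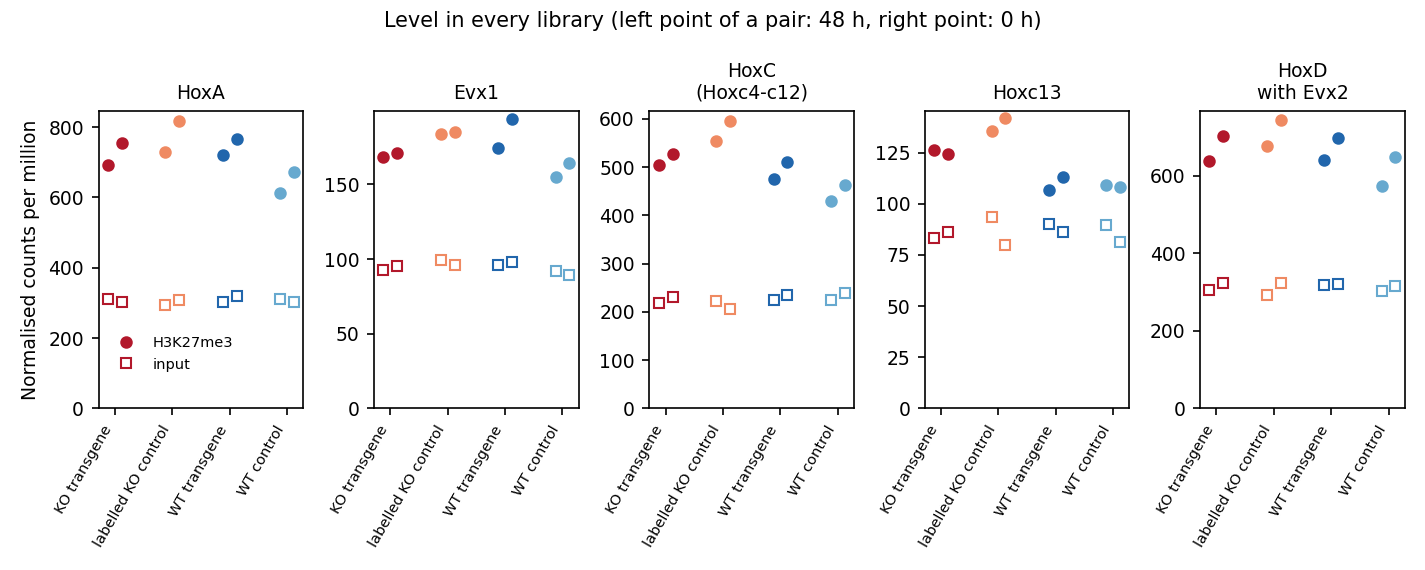
Normalised CPM of the 5 Hox and Evx peaks in every library, H3K27me3 as filled circles and input as open squares, with 48 h left of 0 h in each line. Input runs level across lines, and in H3K27me3 the WT control line is lowest at each time at HoxA, Evx1, HoxC and HoxD. At Hoxc13 the 4 KO lie above the 4 WT H3K27me3 libraries, a separation whose share among all peaks was not counted.

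Across both backgrounds, no peak passed the test of transgene over control lines. edgeR called 0 of 5 peaks, with 0.0748% of all peaks called (77 peaks, and 8019 at an unadjusted p under 0.05), and DESeq2 and limma-voom also called 0 of 5. The log2 differences were 0.06 ± 0.04 at HoxA, 0.04 ± 0.04 at Evx1, 0.03 ± 0.04 at HoxD, −0.01 ± 0.04 at HoxC and −0.07 ± 0.04 at Hoxc13 (SE). In input none of the 5 was called (0.00606% of all peaks).

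Within each background the difference had its own sign. In the WT background, transgene over control was 0.21 at HoxA, 0.20 at Evx1, 0.14 at HoxC, 0.13 at HoxD and 0.02 at Hoxc13, and edgeR called the first 4, where 0.337% of peaks were called. In the KO background it was −0.09 at HoxA, −0.11 at Evx1, −0.15 at HoxC, −0.07 at HoxD and −0.14 at Hoxc13 against the line labelled KO control, and HoxA and HoxC were called lower, where 0.568% of peaks were.

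The difference of these differences was tested as a background by transgene term, a comparison added after these values were seen. edgeR's quasi-likelihood test called 4 of 5 peaks lower, where 0.397% of all peaks were. By size these 4 stood between percentile 12.8 (Evx1) and 21.5 (HoxD) of the log2 values of all peaks, most of which hold far fewer counts. The values were −0.33 ± 0.05 at Evx1 (adjusted p = 2.68e-08), −0.30 ± 0.02 at HoxA (2.63e-36), −0.30 ± 0.03 at HoxC (1.17e-20) and −0.21 ± 0.02 at HoxD (2.57e-15), and −0.16 ± 0.06 at Hoxc13 (0.253). Every term rests on 1 line per combination, so it cannot be told apart from differences between the 4 lines, and it needs the line labelled KO control. Input gave no call at the 5 peaks (0.00404% of all peaks). With an offset that follows enrichment over input none of the 5 was called. The 121 other peaks at 2-fold or more over input had a median of −0.16 in this term, 82.6% of them below 0.

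**Figure D5:**
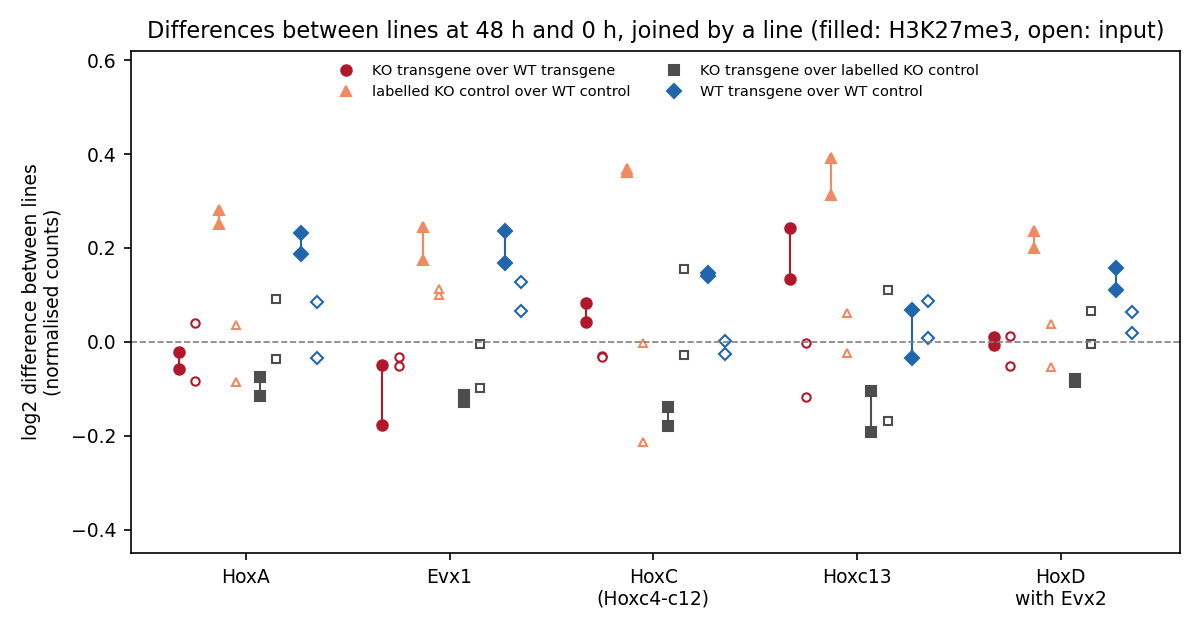
Log2 difference of normalised counts between pairs of lines at 48 h and 0 h (2 points joined by a line), for H3K27me3 (filled) and input (open), at the 5 Hox and Evx peaks. In H3K27me3 the labelled KO control over WT control lies above 0 at all 5 peaks, KO transgene over WT transgene only at HoxC and Hoxc13 at both times, and the 2 transgene over control pairs lie on opposite sides of 0 at HoxA, Evx1, HoxC and HoxD.

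The wider Hox pathway was described by 2 lists. The cofactors that bind DNA with Hox proteins (Meis, Pbx and Pknox families) had a consensus peak at 7 of 9 genes, 79 peaks in all, and the regulators upstream of Hox genes (Cdx factors, retinoic acid receptors and degrading enzymes, Gdf11, and Trithorax and Polycomb proteins) at 11 of 16 genes, 22 peaks in all. For time and induction 0 of 79 and 0 of 22 peaks were called. For KO over WT, with the labelled KO control line included, 15 of 79 cofactor peaks and 4 of 22 regulator peaks were higher and none lower, where 3.8% of all peaks were higher. The lists had medians of 0.19 and 0.07 against −0.01 over all peaks, and 5 of the 15 belonged to Meis1, which lies on chromosome 11. Other called cofactor peaks were those of Pknox2 with 6, Meis2 with 3 and Pbx3 with 1. The 4 regulator peaks all belonged to 1 gene, Cdx1, named after its values were seen. For the background by transgene term 1 of 79 and 3 of 22 were lower, where 0.397% of all peaks were. The 3 were at Cdx2 (−0.22 ± 0.04), which activates posterior Hox genes, at Cyp26a1 and Cyp26c1 in a shared peak (−0.21 ± 0.05) and at Cyp26b1 (−0.23 ± 0.06), enzymes that degrade retinoic acid.

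The 28 peaks flanking the clusters gave few calls. None was called for time or induction. For KO over WT, with the labelled KO control line included, 2 were higher. At 0.59 ± 0.12, 1 lay between the HoxC peak and the broad peak next to it (chr15:103046015-103048959). The other, at 0.28 ± 0.07, lay beside HoxA (chr6:52112121-52122436). For the background by transgene term 1 was lower, the broad peak next to HoxC at chr15:103050461-103133891, by −0.17 ± 0.04. The HoxB peaks were both lower at 48 h, by −0.11 ± 0.01 and −0.12 ± 0.02, and both lower in the background by transgene term, by −0.38 ± 0.02 and −0.40 ± 0.04.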

How the data were processed

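Read counts per consensus peak were deposited by the authors as whole numbers without normalisation for 8 H3K27me3 and 8 input libraries. The deposited peak list gives for each peak a score, a fold enrichment and −log10 p- and q-values of the authors' peak caller, which describe the peak and no single library. Per the submitters' processing notes, which give no role or order, the tools and build were DESeq2 1.26.0, featureCounts, MACS2 2.2.71, BWA 0.7.17-r1188 and mm10. The sources used here do not say on which libraries peaks were called. Broad peaks hide changes narrower than themselves, and a call made on some libraries would favour regions strong in those.

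Peaks were assigned to genes by the RefSeq spans of GRCm38.p6 with 2 kb on either side. Exon, intron and UTR position is not reported. Members and gene lists were chosen with earlier results of these data known. Values are given for every member peak, in every library for those called or holding most counts of a cluster, and promoters were printed by CpG number within each cluster.

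Counts were tested with edgeR 4.0.16 (R 4.3.3): the quasi-likelihood F test over all peaks, filterByExpr, TMM factors and Benjamini-Hochberg adjustment at 0.05. H3K27me3 over input used total counts and the line and time as block. The time model held line and time (3 residual degrees of freedom). Induction added a transgene-specific time effect (2). KO over WT and transgene over control came from 1 model of their main effects plus time (4). The prior degrees of freedom were 1856 for time, infinite for induction and 132 for background, so the spread was pooled over peaks. SEs are the log2 value divided by the root of F, and 95% intervals of the fits are normal intervals from them. Per-line and per-condition intervals are 95% exact binomial (SciPy 1.17.1). They cover counting error only, since PCR reads are not independent molecules. The scripts were tested on simulated data.

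Libraries of a line at 48 h and 0 h differed little beyond sampling noise, with a chi-square per degree of freedom of 1.04 to 1.12 in H3K27me3 and 1.00 to 1.01 in input. They are separate conditions and were not merged. Alternatives were DESeq2 1.42.0, limma-voom (limma 3.58.1), other scalings and filters, input or enrichment-following offsets, subsets of lines, other windows and each library left out.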

Additional observations from a re-analysis of the deposited data

Results flagged for a closer look

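At HoxC the 48 h over 0 h change of H3K27me3 was −0.11, −0.10 and −0.10 on the log2 scale in the WT control, WT transgene and labelled KO control lines. The KO transgene line stood apart from the other 3 at −0.064. Input at HoxC was lower at 48 h in 3 lines and higher in the line labelled KO control, at 0.11, whose 0 h input library had the fewest counts. Of 15 such groups of 4 lines or 8 conditions examined, chance flags about 1 in 20.

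KO over WT in the transgene lines minus KO over WT in the control lines differed from 0 in edgeR's quasi-likelihood test at 4 peaks, with log2 values of −0.30 at HoxC, −0.21 at HoxD, −0.30 at HoxA and −0.33 at Evx1. The term was added after the data were seen. Each of the 4 values draws on the labelled KO control line, which carries Firre sequence in input against its label.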

How the results depend on the processing

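Enrichment over input was called at all 5 peaks, and the ratios of the cluster sums moved by less than their SD, under every alternative run. Leaving out single libraries gave 3 of 5 calls for time and 4 of 5 for the background by transgene term each time. For KO over WT it gave 2 to 4 calls, with 4 reached without the KO transgene library at 0 h and without the WT transgene library at 48 h.

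The call counts that changed were these. For time, 3 calls became 0 with input as offset, 1 with the offset that follows enrichment and 0 without the line block, where all peaks called were 2, 28 and 0 against 112. DESeq2 called 13 in all, limma-voom 191 and the fits without a single library 58 to 67. For induction, 0 became 1 with limma-voom (11 peaks in all, against 6). For KO over WT, 2 became 1 with DESeq2, 4 with limma-voom, 4 with scaling off chromosome 11 and 5 in the control lines, and input as offset left 61 of 4551 peaks called in all, DESeq2 1680. For transgene over control, 0 became 4 in the WT and 2 in the KO background, and all peaks called were 1 with DESeq2, 1 with input as offset and 285 with the offset that follows enrichment, against 77. For the background by transgene term, 4 became 1 with input as offset and 0 with the offset that follows enrichment, where 2 and 82 of 454 peaks were called in all, 63 with DESeq2 and 191 to 363 without a single library. The cause of these losses was not tested.

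Signs turned as follows. With the offset that follows enrichment, time was 0.0044 at Evx1, 0.0021 at HoxC and 0.0082 at Hoxc13, KO over WT −0.038 at Evx1, transgene over control −0.016 at Evx1, −0.016 at HoxA and −0.042 at HoxD, and the background by transgene term 0.010 at HoxD. With input as offset, induction was 0.051 at Evx1, −0.022 at HoxD and 0.19 at Hoxc13, and transgene over control −0.021 at HoxD. limma-voom gave 0.00026 for induction at Hoxc13. In the transgene lines alone KO over WT was −0.11 at Evx1 and −0.040 at HoxA. Transgene over control was −0.11 at Evx1, −0.087 at HoxA and −0.075 at HoxD in the KO background, and 0.14 at HoxC and 0.016 at Hoxc13 in the WT background. In input, total counts and the mean count of 50 gave −0.00065 and −0.0020 for time at Evx1, and 0.019 and 0.020 for the background by transgene term at HoxD. With single libraries left out, KO over WT ran from −0.0096 to 0.11 at Evx1. Induction ran from −0.10 to 0.024 at Evx1, −0.00018 to 0.039 at HoxD and −0.061 to 0.048 at Hoxc13. Transgene over control ran from −0.020 to 0.098 at Evx1, −0.051 to 0.038 at HoxC and −0.010 to 0.054 at HoxD.

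By replicate number, no paired analysis was possible because the labels give none. Libraries were instead matched by line, and the 3 time calls rest on that block, since 0 were left without it.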
